A study of Mus musculus with 18 samples.

Results

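Myelin lipid is rich in galactosylceramide and its sulfated form, sulfatide, and the enzymes that make them were followed here through 10 genes, Sptlc1, Sptlc2, Kdsr, Cers2, Degs1, Elovl1, Elovl7, Fa2h, Ugt8a and Gal3st1. The genes were taken by name from a table of 38046 genes, and all 10 were present and passed the filter on low values. The libraries came from clonal mouse oligodendrocyte progenitor cells (OPCs), the dividing precursors of the myelin-forming oligodendrocytes, derived from primary neural stem cells. The control clones were D7, D3 and E8, and the Thap1 null clones were 3F, D6 and 7F; THAP1 is a zinc-finger transcription factor. Each clone was sequenced 1 time at each of 3 stages: as OPCs in growth medium with PDGF-AA (day 0), and after 2 and 4 days in oligodendrocyte differentiation medium with the thyroid hormone T3 (DIV2 and DIV4). Each of the 6 groups therefore held 3 libraries, and every difference between genotypes is one between 3 clones and 3 other clones. The labels do not say how the null allele was made or how the clones were related.

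Sphingolipid synthesis starts when serine palmitoyltransferase joins serine to palmitoyl-CoA, and a reductase, an N-acyl (ceramide) synthase and a desaturase then yield ceramide. In oligodendrocytes the N-acyl chains are unusually long and often hydroxylated, which takes fatty acid elongases, a very-long-chain ceramide synthase and a fatty acid hydroxylase. A galactosyltransferase turns this ceramide into galactosylceramide, and a sulfotransferase turns part of that into sulfatide; the galactolipids are made in quantity when oligodendrocytes differentiate and build myelin.

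The deposited unit was TPM, a length-corrected transcript abundance scaled to a fixed total in each library. It keeps no sequencing depth, so no counting error could be given and precision rested on the number of clones. In the control OPC libraries, 3 features that code for no protein (Gm26924, Gm15662 and mmu-mir-6236) took 64.8% to 88.0% of all TPM and protein-coding transcripts only 5.05% to 9.003%, against 19.1% to 38.8% in the other 15 libraries. Among those others, the null D6 OPC library had 34.8% of its TPM in the 3 features and the lowest protein-coding part, 19.1%. Values were therefore rescaled to the median gene of each library, and levels below are rescaled TPM. Control OPC libraries also listed fewer transcripts above 0 (54031 to 59435) than the others (65662 to 70964), which rescaling does not restore. The part of this in the comparisons with OPC libraries was not tested. Changes and intervals are on the log2(rescaled TPM + 1) scale, which understates changes of low genes, and a gene is said to have risen or fallen when limma's p, adjusted over 12439 genes, was under 0.05. The labelled cell type was checked with OPC markers. Pdgfra, the PDGF receptor of OPCs, stood at 90.7 to 101 in control and 71.4 to 103 in null OPC. Cspg4, another OPC marker, stood at 11.97 to 25.9 in control and 4.466 to 10.97 in null OPC, without overlap. Of the 7 OPC markers tested, 1 was called between genotypes at the OPC stage, lower in null. Null minus control was above 0 for 3 of them and below 0 for 4. Thap1 RNA, summed over its transcripts, did not mark the null clones. As OPC it was higher in null (0.77, adjusted p = 0.0348). It was 7.99, 5.16 and 4.39 in control OPC (D7, D3 and E8) and 9.37, 12.1 and 9.90 in null OPC (3F, D6 and 7F), and 3.82 to 5.18 against 6.71 to 9.13 at DIV2 and 5.17 to 7.58 against 5.27 to 9.19 at DIV4. Which transcripts the null allele still makes is not given, so this sum does not check the labels. Gusb, which encodes the lysosomal enzyme beta-glucuronidase, separated all 9 control libraries (3.36 to 7.11) from all 9 null libraries (0.176 to 1.13).

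Most of these enzyme genes were higher after differentiation. From OPC to DIV2, 8 of the 10 rose in control, where 34.6% of all tested genes were called (19.2% higher, 15.4% lower). Over the same interval 6 of the 10 rose in null, where 27.4% were called (14.9% higher, 12.6% lower). From OPC to DIV4, 6 of 10 rose in control (31.5% of all genes called, 16.6% higher and 14.9% lower) and 6 of 10 in null (33.0% called, 17.1% higher and 15.9% lower). No member fell in any of these comparisons. The median change of the 10 was 1.68 at DIV2 and 1.25 at DIV4 in control, and 1.27 and 1.27 in null, while the median over all tested genes lay between 0.00 and 0.07. In control the galactosyltransferase gene Ugt8a and the elongase gene Elovl7 had the largest changes at both stages, and Sptlc2 and Kdsr were not called in any of the 4 comparisons. In these bulk libraries fewer cells of a type and less RNA per cell cannot be told apart. With 1 of the null clones 3F, D6 and 7F left out, 3 or 4 of the 10 were called in null at DIV2, beside 11.3% to 14.4% of all genes, and 2 or 3 at DIV4, beside 16.5% to 20.2%. In a fit on the control OPC and DIV4 libraries alone, 1 of the 10 was called, beside 1.61% of all genes. In control, 8 members at DIV2 and 7 at DIV4 had every differentiated library above every OPC library, beside 42.0% and 31.1% of all genes separated in either direction and 23.5% and 16.7% separated upwards. In null 8 members did at each stage, beside 50.3% and 55.0% in either direction and 26.6% and 29.0% upwards.

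**Figure D1:**
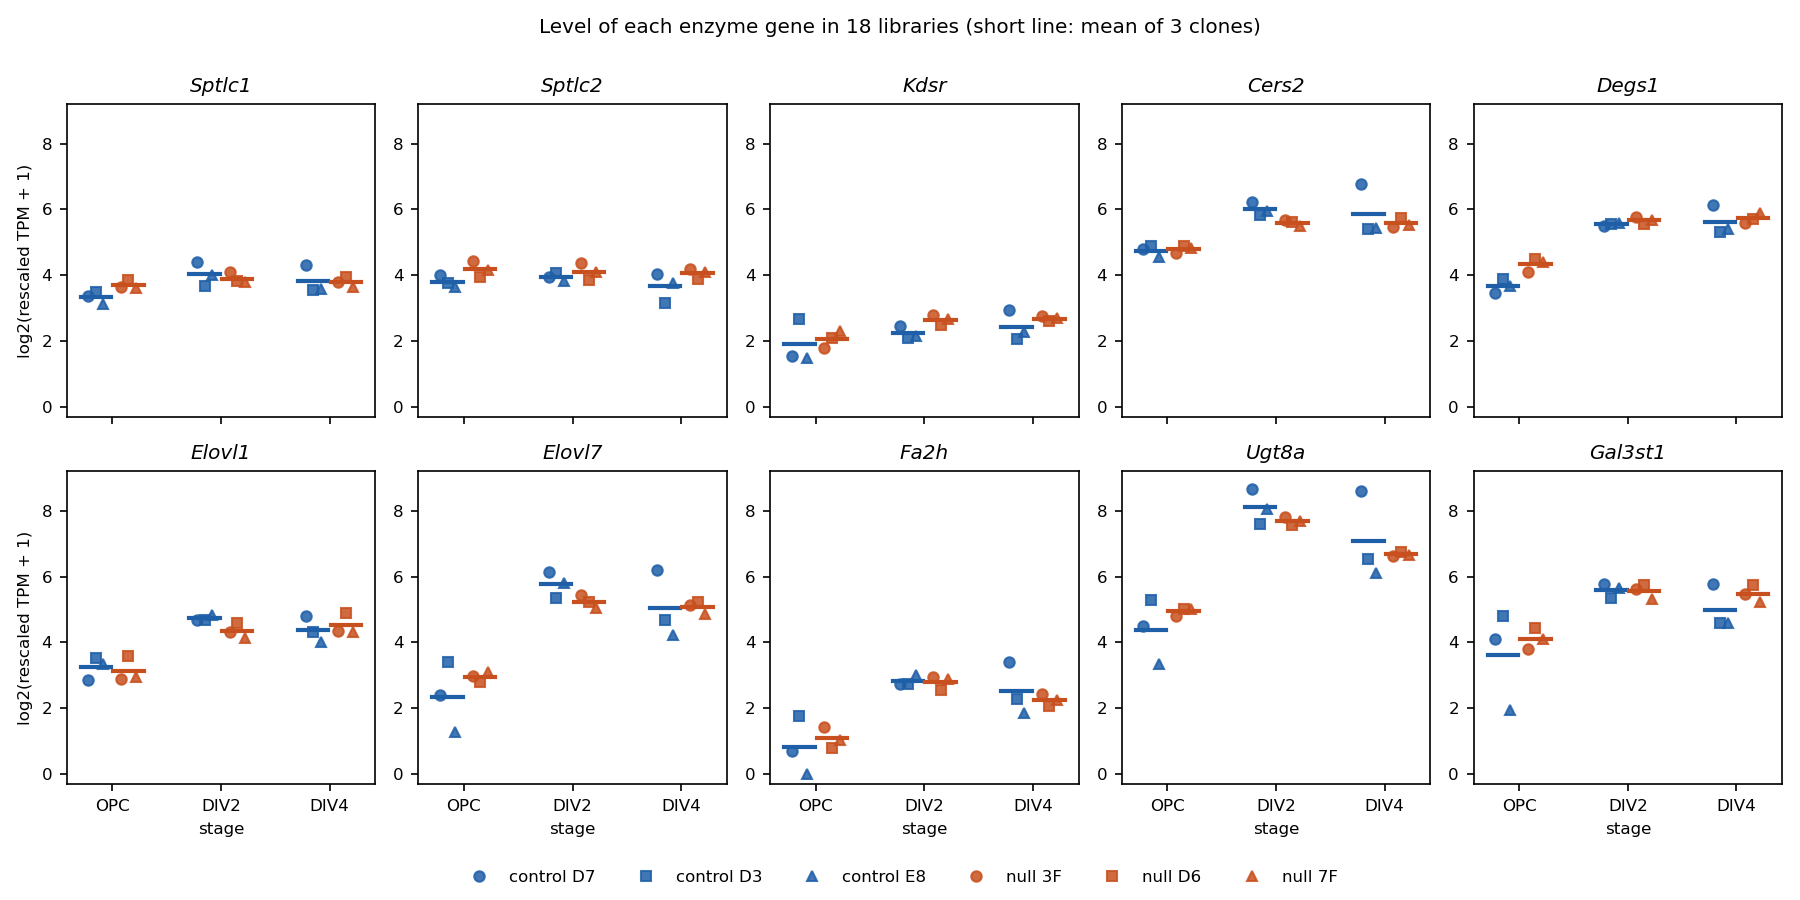
Level of each of the 10 genes in all 18 libraries, as log2(rescaled TPM + 1), by stage. Points are single libraries (blue, control clones; orange, null clones; marker shape, clone) and short lines are group means of 3. Ugt8a, Elovl7, Fa2h, Degs1, Elovl1 and Cers2 stand higher at DIV2 and DIV4 than at OPC, and control clone D7 at DIV4 lies apart from the other control clones.

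Calls between null and control clones were few in this set, as among all tested genes, and a missing call does not show equal levels. At the OPC stage 1 of 10 members differed between genotypes (Degs1, higher in null), against 11.2% of all genes, 5.95% higher and 5.28% lower. At DIV2 and at DIV4 none of the 10 was called by limma, against 2.68% of all genes at DIV2 (1.58% higher, 1.09% lower) and 4.57% at DIV4 (2.81% higher, 1.77% lower), and none had an unadjusted p under 0.05 at either stage. Groups did not overlap for 2 members as OPC (Degs1 and Sptlc1, both higher in null), for 3 at DIV2 (Kdsr higher, Cers2 and Elovl1 lower) and for none at DIV4, beside 24.4%, 30.4% and 26.4% of all genes in either direction and 13.1%, 14.9% and 14.4% higher. Intervals were wide for the genes that varied most among control clones: for Ugt8a at DIV4 the null minus control difference of -0.41 had an interval of -1.56 to 0.74.

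**Figure D2:**
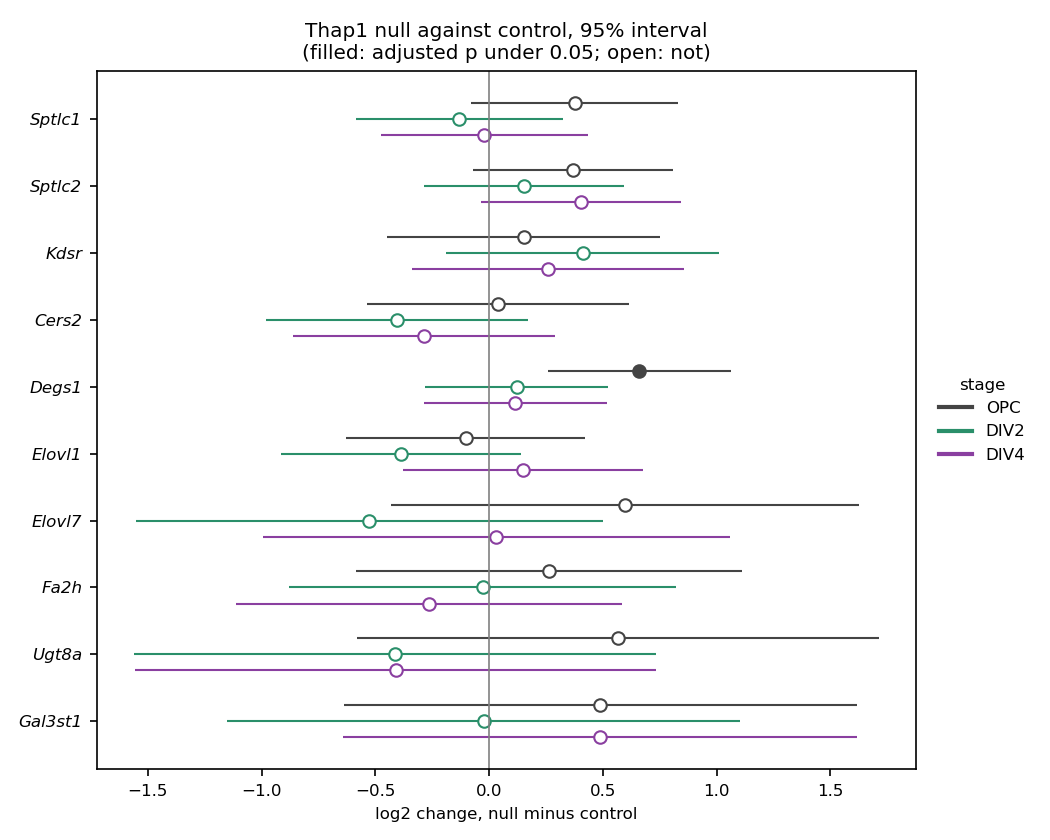
Null minus control log2 change of each gene at OPC (grey), DIV2 (green) and DIV4 (purple) with 95% limma intervals; filled points had an adjusted p under 0.05. Degs1 at OPC is the single filled point, and every other interval includes 0.

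Of the first steps of the pathway, Sptlc1 was called in 1 of the 4 stage comparisons and Sptlc2 and Kdsr in none. Sptlc1 encodes a subunit shared by the serine palmitoyltransferase complexes (chr13:53332748-53377397, minus strand, GRCm38). Its level was 9.30, 10.2 and 7.83 in control OPC (clones in the order D7, D3 and E8, as in all control values below), 20.3, 11.9 and 15.0 at DIV2 and 19.0, 10.6 and 11.1 at DIV4. In null (3F, D6 and 7F throughout) it was 11.4, 13.6 and 11.3, then 16.2, 13.1 and 12.8, then 12.8, 14.6 and 11.5. All null OPC libraries lay above all control OPC libraries, and from DIV2 on the genotypes overlapped. Sptlc1 rose in control from OPC to DIV2 (log2 change 0.70, 95% interval 0.25 to 1.16, adjusted p = 0.0197), a call lost without clone E8 (adjusted p = 0.124), and its change in null was 0.19 (-0.26 to 0.65, adjusted p = 0.547). The OPC difference of 0.38 did not pass (adjusted p = 0.264).

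Sptlc2, a catalytic subunit of the same enzyme (chr12:87305058-87388355, minus strand), stood between 7.96 and 20.6 in all 18 libraries and its 4 stage changes ranged from -0.15 to 0.14, none called. That flat total was made of several transcripts. The table lists 5 for this gene, of which 1 is protein-coding, and the coding one made up 20.6% ± 4.66 (SD, n = 3) of its TPM in control OPC and 42.4% ± 8.04 at DIV2. The coding transcript alone had 2.48, 3.26 and 2.27 rescaled TPM in control OPC, 7.38, 5.48 and 5.48 at DIV2 and 7.48, 3.74 and 2.63 at DIV4. In null it had 5.10, 3.28 and 5.01 as OPC, 10.1, 4.63 and 8.24 at DIV2 and 7.88, 3.67 and 5.02 at DIV4. In control the DIV2 values lay above all OPC values. When only protein-coding transcripts were tested, rescaled to their own total, Sptlc2 rose in control by DIV2 (log2 change 1.71, adjusted p = 0.00141) and by DIV4 (1.27, adjusted p = 0.0102). On that scale the median of all genes also moved, by 0.62 and 0.69. The gene Gm26764 overlaps Sptlc2 on the opposite strand; the kit marks strand, but how strand was used in quantification is not given in the sources used here.

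Kdsr, the reductase of the second step (chr1:106720459-106759727, minus strand), was the lowest of the core enzymes, with 1.95, 5.35 and 1.81 in control OPC, 4.49, 3.28 and 3.41 at DIV2 and 6.69, 3.16 and 3.80 at DIV4. In null it stood at 2.47, 3.24 and 3.91 as OPC, 5.94, 4.56 and 5.31 at DIV2 and 5.73, 5.08 and 5.46 at DIV4. In null, every DIV2 and DIV4 library lay above every OPC library, whereas the control stages overlapped, with clone D3 at 5.35 as OPC. Its changes were 0.33 and 0.51 in control and 0.58 and 0.62 in null, with adjusted p from 0.103 to 0.395. All 4 passed without clone D3 (adjusted p = 0.0036 to 0.0314). At DIV2 all null libraries were above all control libraries, but the difference of 0.41 did not pass (adjusted p = 0.551).

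Both ceramide-forming enzymes rose in both genotypes. Cers2, the ceramide synthase that prefers very long acyl-CoAs (chr3:95314791-95323599, plus strand), stood at 27.0, 28.7 and 22.3 in control OPC, 73.6, 55.9 and 60.9 at DIV2 and 108, 41.6 and 42.2 at DIV4. In null it was 24.5, 28.4 and 27.2 as OPC, 50.4, 47.8 and 44.2 at DIV2 and 43.6, 52.9 and 45.3 at DIV4. All differentiated libraries exceeded all OPC libraries of their genotype. Mean Cers2 was 2.44-fold the OPC level at DIV2 in control (log2 change 1.25, 95% interval 0.68 to 1.83, adjusted p = 0.00285) and 1.78-fold in null (log2 change 0.81, 95% interval 0.23 to 1.38, adjusted p = 0.037). At DIV4 the changes were 1.13 in control and 0.80 in null (adjusted p = 0.0066 and 0.0336). Both calls in null were lost when any 1 null clone was left out. At DIV2 the highest null library (50.4) was below the lowest control library (55.9), a difference of -0.40 that did not pass (adjusted p = 0.54). Cers2 overlaps 6330562C20Rik and Setdb1 on the opposite strand. Of its 31-base words, 3.47% also occur, as written or as the reverse complement, in transcripts of other genes. The gene sharing the most of them was 6330562C20Rik.

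Degs1 encodes the desaturase that introduces the double bond turning dihydroceramide into ceramide (chr1:182275772-182282804, minus strand). Its values were 9.995, 13.9 and 11.7 in control OPC, 43.8, 46.3 and 47.5 at DIV2 and 68.6, 39.0 and 41.6 at DIV4. In null they were 16.2, 21.7 and 20.1 as OPC, 53.4, 46.4 and 50.2 at DIV2 and 47.5, 51.5 and 58.0 at DIV4. Every differentiated library was above every OPC library. From OPC to DIV2 it had a 3.86-fold mean rise in control (log2 change 1.87, 95% interval 1.47 to 2.28, adjusted p = 1.72e-05) and 2.58-fold in null (log2 change 1.33, 95% interval 0.93 to 1.74, adjusted p = 0.000217). At DIV4 the changes were 1.94 and 1.40 (adjusted p = 2.11e-05 and 9.96e-05). Degs1 was also the member that differed between genotypes as OPC: every null library (16.2 to 21.7) lay above every control library (9.995 to 13.9), a 1.63-fold difference of means (log2 change 0.66, 95% interval 0.26 to 1.06, adjusted p = 0.0367). That call was lost without control clone E8 or without any 1 null clone (adjusted p = 0.0627 to 0.199), with changes of 0.57 to 0.78. At DIV2 and DIV4 the genotypes overlapped, with differences of 0.12 and 0.11.

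The elongases rose in both genotypes. Elovl1, which extends saturated and monounsaturated very-long-chain acyl-CoAs (chr4:118428093-118432953, plus strand), stood at 6.20, 10.6 and 9.25 in control OPC, 24.7, 24.7 and 27.5 at DIV2 and 26.7, 18.9 and 15.2 at DIV4. In null it stood at 6.40, 11.1 and 6.73 as OPC, 19.0, 23.1 and 16.5 at DIV2 and 19.6, 28.6 and 19.0 at DIV4. Every differentiated library lay above every OPC library of the same genotype. It rose by 1.49 at DIV2 and 1.13 at DIV4 in control (adjusted p = 0.000518 and 0.00389) and by 1.20 and 1.38 in null (adjusted p = 0.00249 and 0.000732). The control call at DIV4 was lost without clone D7 (log2 change 0.72, adjusted p = 0.0809), and the null call at DIV2 without clone 3F (0.0513). At DIV2 all null libraries were below all control libraries (difference -0.39, -0.91 to 0.14, adjusted p = 0.518). The end of Elovl1 overlaps Cdc20 on the opposite strand.

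Elovl7, an elongase of saturated long-chain acyl-CoAs, had larger changes (chr13:108214404-108285683, plus strand). It stood at 4.26, 9.51 and 1.43 in control OPC, 69.5, 39.6 and 54.8 at DIV2 and 72.9, 24.9 and 17.8 at DIV4. In null it stood at 6.91, 5.93 and 7.51 as OPC, 42.4, 36.3 and 32.0 at DIV2 and 33.9, 36.8 and 28.1 at DIV4. No differentiated library came as low as any OPC library. The mean was 10.8-fold the OPC mean at DIV2 in control (log2 change 3.40, 95% interval 2.38 to 4.43, adjusted p = 0.000162) and 5.44-fold in null (log2 change 2.28, 95% interval 1.25 to 3.31, adjusted p = 0.00294). At DIV4 it was 7.60-fold in control (adjusted p = 0.00109) and 4.86-fold in null (adjusted p = 0.00365). The null calls were lost without clone 3F at DIV2 (adjusted p = 0.0532) and without clone D6 at DIV4 (0.0613). Gm32376 and Gm30747 overlap Elovl7 on the opposite strand. Between genotypes the differences were 0.60, -0.53 and 0.03 at OPC, DIV2 and DIV4 (adjusted p = 0.441, 0.695 and 0.988).

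Fa2h, the hydroxylase that adds the 2-hydroxyl group of myelin galactolipids (chr8:111345135-111393824, minus strand), was the lowest-expressed gene of the set as OPC. In control OPC it stood at 0.631 in D7 and 2.39 in D3 and was listed at 0 in E8, and in null OPC at 1.69, 0.732 and 1.05. It reached 5.74, 5.61 and 7.03 in control and 6.75, 4.91 and 6.35 in null at DIV2, and 9.65, 3.83 and 2.65 in control and 4.41, 3.19 and 3.77 in null at DIV4. All differentiated libraries were above all OPC libraries. It rose by 2.01 (adjusted p = 0.00168) and 1.69 (0.00586) in control and by 1.71 (0.00535) and 1.17 (0.0353) in null. The null call at DIV4 did not hold without any 1 null clone, without a filter on low values, or with a pseudocount of 0.1 (adjusted p from 0.0834 to 0.183). The control call at DIV4 was lost without D7 (0.0817), and the null call at DIV2 was lost without D6 or 7F (0.054 and 0.0713). At DIV2 the genotypes differed by -0.03 (-0.88 to 0.82), and at each stage they overlapped. These levels sum 4 listed transcripts, of which 1 is protein-coding. The coding one made up a mean of 53.8% of Fa2h TPM in control OPC (D7 and D3 only) and 59.4% in null OPC. Its mean share was 85.2% in control and 74.6% in null at DIV2, and 79.6% and 84.2% at DIV4. Alone, it had 4.69, 4.68 and 6.35 rescaled TPM in control and 5.16, 3.95 and 4.26 in null at DIV2.

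Ugt8a encodes the UDP-galactose ceramide galactosyltransferase that commits ceramide to galactosylceramide (chr3:125865271-125938619, minus strand), and it was the most abundant member from DIV2 on. As OPC it stood at 21.9, 38.3 and 9.19 in control and 27.0, 31.7 and 31.3 in null. At DIV2 it stood at 401, 194 and 265 in control and 223, 190.1 and 205 in null. At DIV4 it stood at 389.6, 92.2 and 68.3 in control and 98.2, 105 and 101 in null. The OPC values of both genotypes lay below every differentiated value; the null clones lay close together at each stage, and the control clones were spread, with E8 low as OPC and D7 high at DIV4.

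From OPC to DIV2 mean Ugt8a rose 12.4-fold in control (log2 change 3.72, 95% interval 2.57 to 4.86, adjusted p = 0.000187) and 6.86-fold in null (log2 change 2.74, 95% interval 1.59 to 3.89, adjusted p = 0.0019). By DIV4 it was 7.94-fold the OPC mean in control (2.70, adjusted p = 0.00214) and 3.38-fold in null (1.73, adjusted p = 0.0227), the latter call lost without any 1 null clone (adjusted p = 0.128 to 0.133). The genotypes overlapped at every stage, with differences of 0.57, -0.41 and -0.41 (adjusted p = 0.521, 0.813 and 0.734). Ordered by mean, the 6 groups ran control DIV2, null DIV2, control DIV4, null DIV4, null OPC and control OPC; of these neighbours, null DIV4 and null OPC did not overlap, and each of the other 4 adjacent pairs did.

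Gal3st1, the cerebroside sulfotransferase that makes sulfatide (chr11:3983636-3999326, plus strand), stood at 16.2, 27.2 and 2.84 in control OPC and 13.0, 20.5 and 16.1 in null OPC. At DIV2 it stood at 53.3, 39.7 and 49.0 in control and 48.2, 52.2 and 39.3 in null. At DIV4 it stood at 53.7, 23.2 and 23.2 in control and 43.7, 52.4 and 36.1 in null. All null differentiated libraries were above all null OPC libraries, but in control the OPC value of D3 (27.2) exceeded the DIV4 values of D3 and E8 (both 23.2). It rose in control by DIV2 (log2 change 1.97, 95% interval 0.84 to 3.09, adjusted p = 0.0105), a call lost without E8 (log2 change 1.10, adjusted p = 0.0572). The other 3 stage changes just missed the threshold, at 1.37 for DIV4 in control (adjusted p = 0.0606) and 1.45 and 1.37 for DIV2 and DIV4 in null (0.0535 and 0.0594). With the clone as a replicate block these 3 passed, with adjusted p of 0.0465, 0.0414 and 0.0451. The genotype differences were 0.49, -0.02 and 0.49 at OPC, DIV2 and DIV4 (adjusted p = 0.577, 0.998 and 0.67).

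Promoter windows are shown for Ugt8a and Elovl7, whose changes in control were the largest of the set, and for Gal3st1, the sulfatide step, as the 250 bases before a start site (RefSeq, GRCm38.p6, written 5′ to 3′ on the gene's strand). Windows were found for 9 of the 10 genes, 13 windows in all. Fa2h had no entry. Capitals mark matches, on either strand, to a THAP1 motif (TNNNGGCA) in Ugt8a and to a SOX motif (ACAANG) in Gal3st1; Elovl7 had no match to the motifs searched.
Ugt8a, chr3:125938653-125938902, minus strand: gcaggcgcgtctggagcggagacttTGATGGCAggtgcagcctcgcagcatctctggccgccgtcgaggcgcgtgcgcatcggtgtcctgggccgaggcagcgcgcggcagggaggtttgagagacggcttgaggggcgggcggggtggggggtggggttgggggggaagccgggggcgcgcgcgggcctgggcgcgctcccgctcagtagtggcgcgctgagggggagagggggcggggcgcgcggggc
Elovl7, chr13:108214154-108214403, plus strand: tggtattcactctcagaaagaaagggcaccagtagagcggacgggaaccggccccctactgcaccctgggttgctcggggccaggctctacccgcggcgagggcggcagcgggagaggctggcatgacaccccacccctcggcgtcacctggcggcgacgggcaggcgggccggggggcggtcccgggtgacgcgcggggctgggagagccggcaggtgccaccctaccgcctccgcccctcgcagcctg
Gal3st1, upstream start, chr11:3983386-3983635, plus strand: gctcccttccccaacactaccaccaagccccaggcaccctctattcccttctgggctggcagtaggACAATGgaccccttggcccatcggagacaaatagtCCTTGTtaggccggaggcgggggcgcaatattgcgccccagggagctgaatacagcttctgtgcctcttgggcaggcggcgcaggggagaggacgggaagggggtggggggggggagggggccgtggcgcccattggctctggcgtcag

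The Ugt8a match (TGATGGCA) began 225 bases before the start. The sequence just after that RefSeq start was not found in a GENCODE M21 transcript of Ugt8a, and the same held for Kdsr. Among the 13 windows, 5 windows of 4 genes held a match to TNNNGGCA: Ugt8a, Cers2 (TCCGGGCA 75 bases before its upstream start, and TGCCGAGA on the other strand before its downstream start), Sptlc1 (TTCCGGCA and, on the other strand, TGCCGGAA) and the downstream start of Elovl1 (TCTAGGCA). Of 32851 RefSeq windows of the same length, 36.4% held such a match. The SOX motif was in 3 windows, of Gal3st1 and Sptlc1 (36.3% of all windows; 2 of the 3 are neighbouring Gal3st1 starts), the YY1 motif CCATNTT in that of Sptlc2 (12.4%), and CTGGNAC, a form of the motif of the myelin regulator MYRF, in none (16.1%). No motif match overlapped another. None of Ugt8a, Cers2, Sptlc1 and Elovl1 was called between genotypes at any stage, though groups did not overlap for Sptlc1 as OPC and for Cers2 and Elovl1 at DIV2. Degs1, which was called as OPC, had no match in its window. Whether any of these matches has a part in the levels was not tested.

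**Figure D3:**
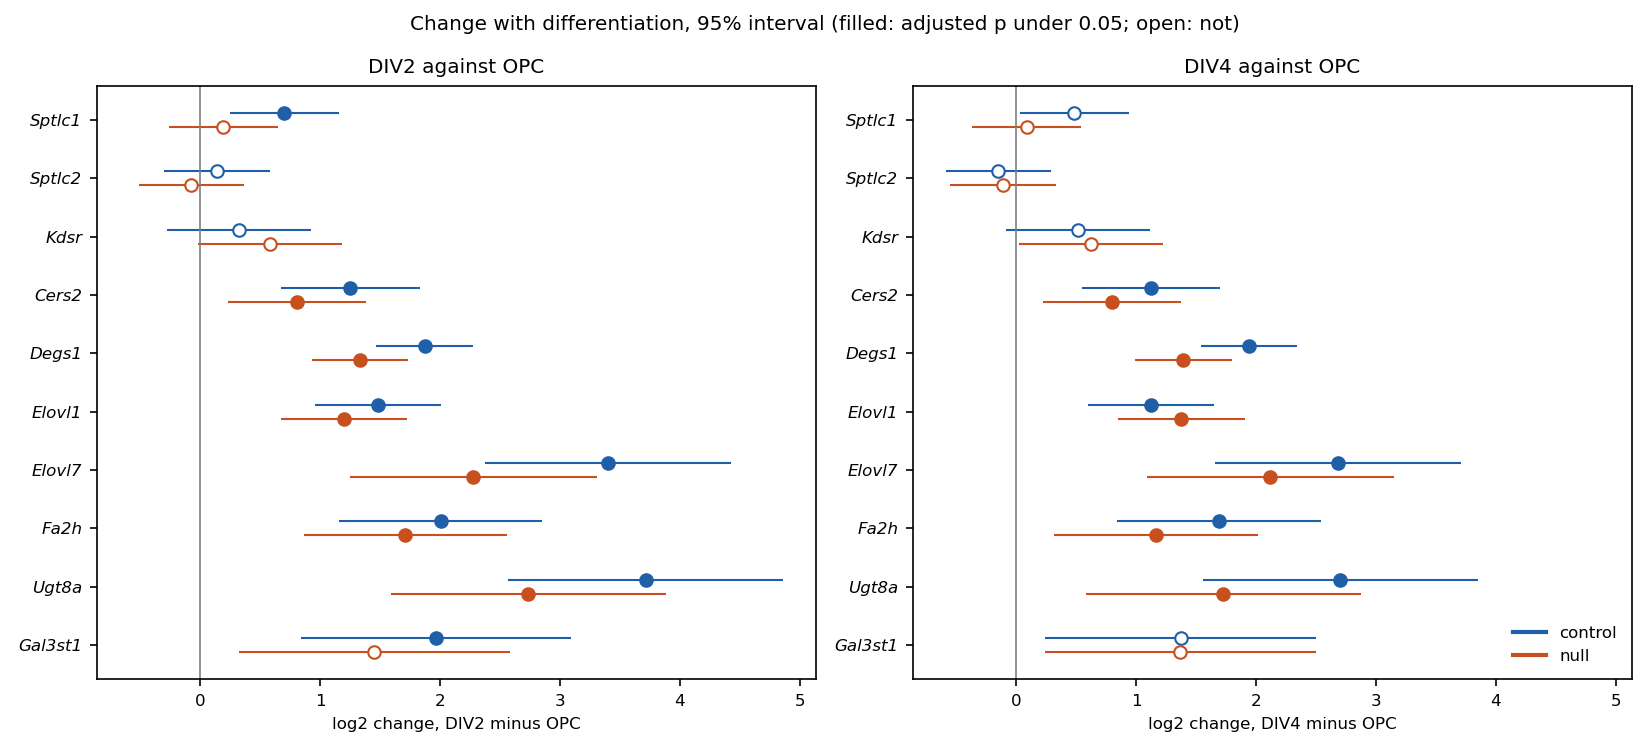
Log2 change from OPC to DIV2 (left) and to DIV4 (right) in control (blue) and null (orange) for each gene, with 95% limma intervals; filled points had an adjusted p under 0.05. Ugt8a and Elovl7 lie farthest right in control, Sptlc2 lies near 0, and the control and null intervals of each gene overlap.

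Whether the rise differed between genotypes was tested directly, and no member passed. At DIV2 the rise in null less that in control was below 0 for 9 of 10 members, from -1.12 for Elovl7 to 0.26 for Kdsr, with a median of -0.48 beside -0.06 for all tested genes. No member was called by limma for this interaction at DIV2 (0.378% of all genes called, 0.177% higher and 0.201% lower), at DIV4 (2.41%, 1.25% and 1.17%) or between DIV2 and DIV4 (0.0241%, 0.0161% and 0.00804%), and none had an unadjusted p under 0.05. Ugt8a had -0.98 (-2.60 to 0.64, adjusted p = 0.628), Elovl7 -1.12 (-2.58 to 0.33, adjusted p = 0.501) and Degs1 -0.54 (-1.11 to 0.03, adjusted p = 0.397). These values share their libraries with the stage and genotype comparisons above. Clone E8 had low control OPC values, for example Ugt8a 9.19, Gal3st1 2.84 and Elovl7 1.43, and in that library 88.0% of TPM lay in the 3 noncoding features. By clone, Ugt8a rose to DIV2 by 4.14, 2.31 and 4.71 in control and by 3.00, 2.55 and 2.67 in null. Elovl7 rose by 3.74, 1.95 and 4.52 against 2.46, 2.43 and 1.96, and Gal3st1 by 1.66, 0.53 and 3.70 against 1.82, 1.30 and 1.24. For these genes control D3 rose less than every null clone. The part of E8 in the larger control rises was not tested beyond fits with 1 clone left out. On deposited TPM, all 10 members were called for both interactions, with the median of all genes at -1.66 and -1.68.

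Between DIV2 and DIV4 no member was called by limma in either genotype, beside 0.249% of all genes in control (0.105% higher, 0.145% lower) and 1.68% in null (0.965% higher, 0.715% lower), and none had an unadjusted p under 0.05. Ugt8a moved most, by -1.01 in control and -1.01 in null (adjusted p = 0.551 and 0.375). In null all DIV4 libraries (98.2 to 105) lay below all DIV2 libraries (190.1 to 223), and the fall passed in a fit on those 6 libraries alone (adjusted p = 0.00339), in which 15.9% of all genes were called. Fa2h was the other member whose null DIV4 libraries were all below its DIV2 libraries; such separation held for 2 of 10 members in null, both lower, and for none in control, against 38.4% and 15.9% of all genes in either direction, 20.5% and 9.08% lower and 17.9% and 6.78% higher.

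Control clone D7 stood apart at DIV4. Its Ugt8a level of 389.6 compared with 92.2 in D3 and 68.3 in E8, and its Elovl7 (72.9), Cers2 (108) and Gal3st1 (53.7) were also the highest control values at that stage. Per clone, Ugt8a changed by -0.04 in D7 between DIV2 and DIV4, by -1.06 in D3 and by -1.94 in E8, beside -0.84 to -1.18 in the null clones. Without the D7 library at DIV4, a choice made after seeing the data, the control change of Ugt8a was -1.78 (adjusted p = 0.0274) and 2 members were called, beside 5.42% of all genes; the difference between genotypes at DIV4 then turned from -0.41 to 0.35 for Ugt8a, and turned positive for Fa2h (0.18), Cers2 (0.16) and Sptlc1 (0.23). None of these genotype differences was called with or without it.

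Markers of cell type moved with that library. The summed level of 12 oligodendrocyte markers was 13024 in D7 at DIV4 against 2596 and 2379 in D3 and E8, and 2023 to 3037 in null. The summed level of 8 astrocyte markers was 15.9 in D7 against 244 and 497 in D3 and E8, and 206 to 303 in null; Gfap stood at 0.176 in D7 and at 80.0 to 139 in null, while Aqp4 was at most 0.200 in null at DIV4. The sum of the OPC markers was 84.6 to 229 in control and 154 to 177 in null. Neuron markers summed to 93.4 to 132 in control and 75.1 to 102 in null at DIV4. Sums of the microglia markers stayed within 0.289 to 4.63 and of the mesenchymal markers within 0.401 to 4.81 in all 18 libraries. The part of cell composition in the enzyme levels was not tested.

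Ratios within a library do not depend on the scaling, and 20 were compared between genotypes with two-sided exact permutation tests, whose smallest p for 3 against 3 libraries is 0.1, so none could pass 0.05. The balance between the galactosyl and glucosyl branches was read from Ugt8a over Ugcg, the glucosylceramide synthase. At DIV2 the ratio was 40.6, 33.5 and 39.4 in control and 25.8, 22.9 and 23.9 in null, so all null libraries were below all control libraries. The difference was -0.64 on the log2 scale (control mean 5.24 ± 0.15, null 4.60 ± 0.09, SD, n = 3 each; exact permutation p = 0.1, adjusted p = 0.444). At DIV4 the ratio was 61.8 in D7 and 18.4 to 20.5 in the other control clones, against 16.7 to 20.1 in null (exact permutation p = 0.2), and as OPC the genotypes overlapped.

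The ratio of sulfotransferase to galactosyltransferase RNA was higher in null at DIV4 in every clone. Gal3st1 over Ugt8a was 0.138, 0.252 and 0.340 in control and 0.445, 0.497 and 0.359 in null, with all null libraries above all control libraries (log2 difference 0.92, exact permutation p = 0.1, adjusted p = 0.444). Among the ceramide synthases, Cers2 made up 58.6, 59.1 and 57.4% of the summed TPM of Cers1 to Cers6 in control at DIV2 and 52.5, 53.6 and 51.9% in null. Those groups did not overlap either (difference -5.70 percentage points, exact permutation p = 0.1, adjusted p = 0.444). At DIV2 mean Cers4 was 5.47 in null and 1.87 in control, and mean Cers1 16.3 and 22.5, both without overlap, beside 30.4% of all genes. At DIV4 Cers4 was 3.91 and 1.91, again without overlap, beside 26.4% of all genes. Neither gene was called between genotypes, and their part in the Cers2 share was not tested. The other 17 ratio comparisons overlapped between genotypes. They covered Fa2h over Ugt8a at DIV2 and DIV4 (not computed as OPC, where Fa2h was listed at 0 in control E8), Elovl1 over Elovl7, Sptlc1 over Sptlc2, Degs1 over Kdsr, and the remaining stages of the ratios above.

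**Figure D4:**
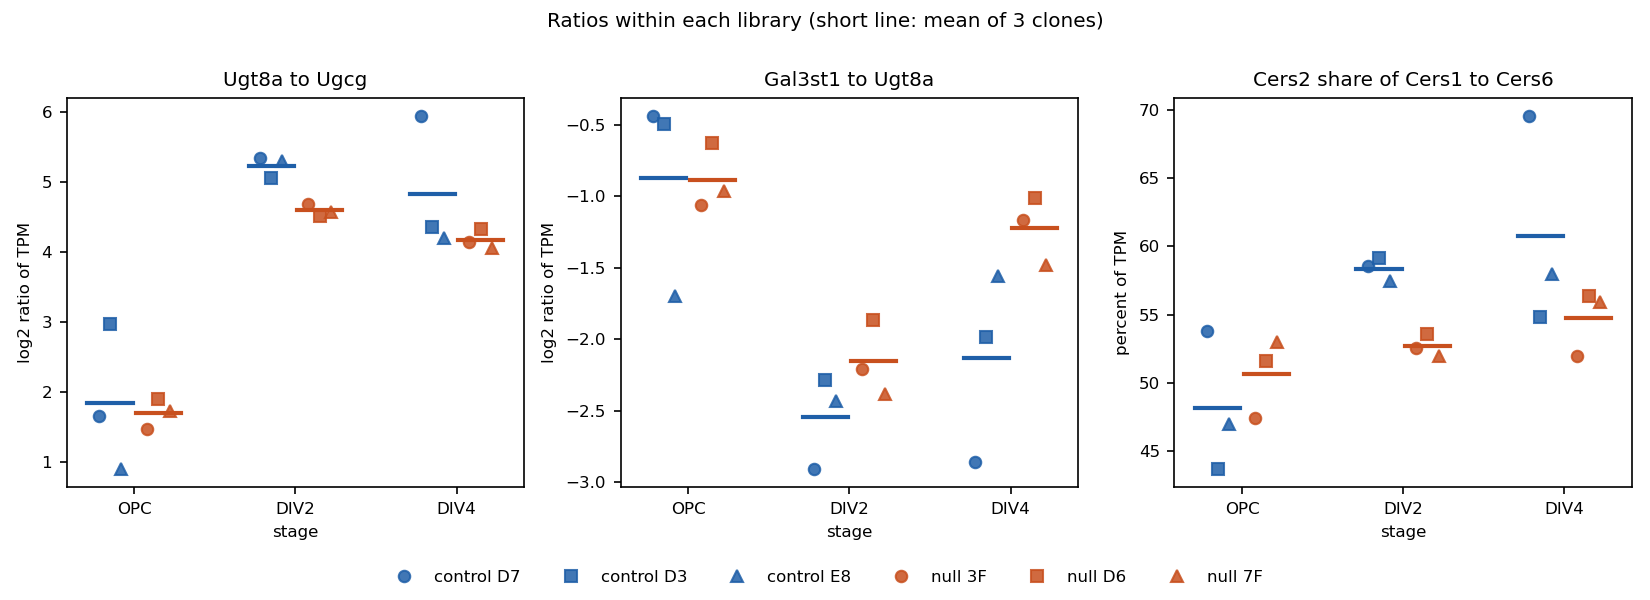
Ratios within each library by stage: Ugt8a to Ugcg and Gal3st1 to Ugt8a as log2 ratios of TPM, and the Cers2 share of Cers1 to Cers6 in percent. Points are single libraries, short lines group means of 3; null lies below control at DIV2 in the first and the last panel and above control at DIV4 in the middle one.

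The rest of the pathway, in 5 lists chosen with earlier results of these data known, was described by its counts and medians. From OPC to DIV2 in control, 2 of 8 tested genes of the other ceramide-core list rose and none fell, as did 4 of 8 other elongation genes and 4 of 10 fatty acid supply genes; of 13 genes of the ceramide branches 5 rose and 1 fell, and of 3 serine synthesis genes 1 fell. The medians were 0.27, 0.65, 0.22, 0.35 and -0.62, in that order. Of all tested genes 34.6% were called in control, 19.2% higher and 15.4% lower. In null over the same interval 1 of 8, 1 of 8 and 3 of 10 rose and none fell, 4 of 13 rose, and 1 of 3 fell. There 27.4% of all genes were called, 14.9% higher and 12.6% lower. Genes named from these counts alone, after their values were seen, were Sgms2, a sphingomyelin synthase, Cerk, the ceramide kinase, Gltp, a glycolipid transfer protein, Scd2, a stearoyl-CoA desaturase, and Phgdh, the first enzyme of serine synthesis.

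In control Sgms2 stood at 0.0739 to 0.521 as OPC and 8.49 to 13.7 at DIV2, and in null at 0.507 to 0.835 and 7.34 to 8.36 (log2 changes 3.27 and 2.38, adjusted p = 2.19e-06 and 2.58e-05). Cerk rose by 2.65 in control and 3.24 in null (adjusted p = 8.11e-05 and 2.18e-05). Gltp rose by 2.14 and 1.75 (adjusted p = 8.13e-05 and 0.000412), and Scd2, at 285 to 349.8 the most abundant of them in control at DIV2, by 1.20 and 0.79 (adjusted p = 4.44e-05 and 0.000927). These 4 genes were also called, higher, from OPC to DIV4 in both genotypes. Cers1, a ceramide synthase with a preference for shorter chains, rose by 1.22 in control and 1.65 in null (adjusted p = 0.00417 and 0.000704), while Cers4, Cers5 and Cers6 were not called in any stage comparison and Cers3 stayed at or below 0.241. Phgdh fell by DIV2 in control (-2.14, adjusted p = 0.00301, but 0.41 on deposited TPM) and in null (-1.36, adjusted p = 0.0405), and between DIV2 (15.2 to 16.8) and DIV4 (82.7 to 110.4) it rose in null (2.47, adjusted p = 0.0164), together with Psph, which acts later in serine synthesis (1.57, adjusted p = 0.011). Those null calls were lost without any 1 null clone, and astrocyte marker sums in null were 47.2 to 51.7 at DIV2 and 206 to 303 at DIV4; their part was not tested.

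Among 8 tested genes of the other elongation list, 1 was called between genotypes at DIV2 and 2 at DIV4, all lower in null. Of all genes 2.68% and 4.57% were called, 1.09% and 1.77% lower. At DIV2 and DIV4 the genes of these lists called between genotypes lay in fatty acid elongation, where the reduction, dehydration and second reduction that follow each elongase step are shared by all chains. Hsd17b12, the ketoacyl-CoA reductase of that cycle, stood at 79.2, 55.0 and 68.2 in control and 35.1, 44.4 and 36.2 in null at DIV2. At DIV4 it stood at 73.2, 41.0 and 44.5 in control and 31.4, 27.6 and 31.2 in null. The genotypes did not overlap at either stage, and null was lower (-0.78, adjusted p = 0.0397 at DIV2; -0.75, 0.0363 at DIV4). As OPC the values were 37.3, 35.4 and 38.1 in control and 37.8, 42.5 and 39.4 in null. Hacd3, a dehydratase of the cycle listed under its older symbol Ptplad1, was 62.1, 43.6 and 65.8 in control and 35.3, 36.2 and 34.3 in null at DIV4 (-0.66, adjusted p = 0.0289), again without overlap. Each of the 3 calls was lost under several alternatives: without clone E8 or any 1 null clone for all 3, without clone D7 for both at DIV4, and on deposited TPM (adjusted p = 0.141, 0.108 and 0.292), while null stayed lower in all of them.

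Of 13 tested genes of the ceramide branches, 2 were called between genotypes as OPC, 1 higher and 1 lower in null. Of all genes 11.2% were called there, 5.95% higher and 5.28% lower. No gene of these branches was called later. Ugcg, which starts the glucosylceramide branch, was higher in null OPC (9.71, 8.45 and 9.44) than in control OPC (6.91, 4.90 and 4.94; log2 change 0.64, 95% interval 0.25 to 1.03, adjusted p = 0.0356). At DIV2 and DIV4 its difference was 0.20 at both stages (adjusted p = 0.704 and 0.6). B4galt6, a lactosylceramide synthase named after its value was seen, was lower in null OPC (-0.81, adjusted p = 0.0212), a direction that turned on deposited TPM (0.73), where the median gene moved by 1.50. That call was lost without clone E8, D6 or 7F (adjusted p = 0.0957 to 0.181), with protein-coding transcripts (0.111) and in a fit on the OPC libraries alone (0.226). The Ugcg call was lost without clone D3 or E8 or any 1 null clone (adjusted p = 0.07 to 0.193). No other gene of the 5 lists was called between genotypes at any stage.

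**Figure D5:**
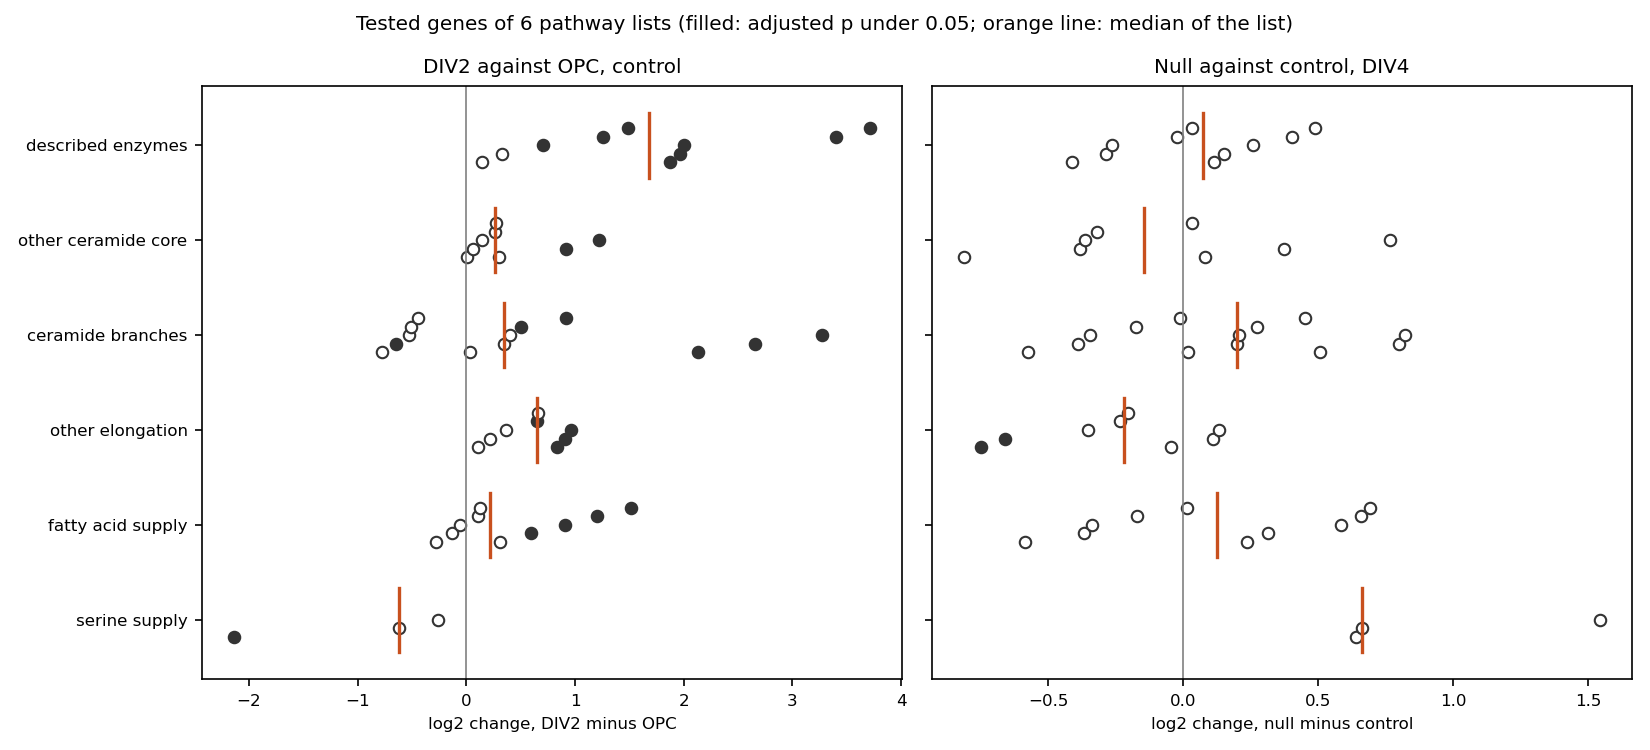
Log2 change of each tested gene in the 10-gene set and 5 pathway lists, from OPC to DIV2 in control (left) and null minus control at DIV4 (right). Filled points had an adjusted p under 0.05 by limma and the orange line is the list's median; the enzyme set's median is 1.68 on the left and 0.07 on the right.

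Profiles over the 18 libraries were compared by the root mean square difference of centred log2 values, among genes with a mean of at least 5. For Ugt8a the 3 nearest of 7528 genes were Elovl7 (0.32), Cnksr3 (0.35), Cnp (0.35), so that its nearest gene was another of the 10. Gal3st1 was the 117th nearest to Ugt8a, at 0.76, and Sptlc2 the most distant of the members compared, at 1.48. For Fa2h the nearest were Thra (0.25), Tns3 (0.26), Plxnb3 (0.27), and for Gal3st1 Thra (0.35), Yipf1 (0.38), Bcas1 (0.42). The libraries share clones and stages, so these values describe the data and carry no test.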

How the data were processed

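RNA of 18 libraries from mouse clones was sequenced after ribosomal RNA removal with a strand-marking total RNA kit, per the labels' protocols. The authors deposited TPM per transcript in 1 table of 93666 transcripts; the submitters' processing notes name STAR, Picard and the mm10 build, and the quantifier and its use of strand are not given in the sources used here. TPM was summed by gene symbol (38046 genes, 25 of them with spreadsheet date names restored), and 96.6% of transcripts matched the GENCODE M21 annotation. Libraries were rescaled by the median of ratios over 14689 genes above 0 in every library. Genes with a mean of at least 1 rescaled TPM (12439) were tested as log2(rescaled TPM + 1) with limma 3.58.1 in R 4.3.3, with group means over all 18 libraries, a variance trend and Benjamini-Hochberg adjustment at 0.05. Ratios were compared by exact permutation. Promoter sequences came from RefSeq.

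Replicates are clones, so p-values measure the spread between these clones. The clone names in the labels pair libraries across stages. Correlations of deviations from group means were averaged within each genotype and pair of stages. These means were 0.05 to 0.31 for the same clone and -0.03 to -0.15 for different clones. Single pairs of libraries ranged from -0.014 to 0.425 for the same clone and from -0.333 to 0.128 for different clones. A fit with the clone as a replicate block (consensus correlation 0.12) was an alternative. Deviations within a group cancel out for each gene, so the negative means for different clones largely follow from the positive same-clone means and are not a second observation. Other alternatives were deposited TPM, quantile normalization, protein-coding transcripts, a pseudocount of 0.1, other filters, no variance trend, only the libraries compared, and each clone left out; leaving out the control D7 DIV4 library and scaling on more abundant genes were chosen after seeing the data.

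The members and lists were chosen with earlier results of these data known. Named genes were the 10 members, pathway genes called between genotypes at DIV2 or DIV4, Ugcg and the ceramide synthases, the 3 genes nearest in profile to Ugt8a, Fa2h and Gal3st1, and Thap1 and Gusb. Sgms2, Cerk, Gltp, Scd2, Phgdh, Psph, B4galt6 and the OPC marker Cspg4 fell outside this rule and were named after their values were seen.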

Additional observations from a re-analysis of the deposited data

How the results depend on the processing

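Directions of the called member changes held under every alternative run, and calls depended on the number of clones and on the scale. On deposited TPM the median of all genes moved by 1.50 between genotypes as OPC, and 10 members were called there, 10 for DIV4 against OPC in control, and 10 for each interaction against OPC, beside 81%, 88.1%, 72.6% and 73.5% of all genes. With protein-coding transcripts alone the first 2 counts were 2 and 10, beside 22.4% and 52.2%. Without a filter on low values they were 0 as OPC and 3 for DIV4 against OPC in null, beside 4.96% and 13.9%. In fits on only the libraries compared, members called were 0 between genotypes as OPC, 1 for DIV4 against OPC in control and 1 for DIV4 against DIV2 in null, beside 1.87%, 1.61% and 15.9%. Without the control D7 DIV4 library, 2 were called for DIV4 against DIV2 in control, beside 5.42%. With 1 clone left out, members called ranged from 0 to 1 between genotypes as OPC, from 3 to 8 for DIV2 against OPC in null and from 2 to 8 for DIV4 against OPC in null, beside 2.33% to 17.9%, 11.3% to 32.4% and 16.5% to 38.1% of all genes. With the clone as a replicate block, members called were 8 at DIV2 and 7 at DIV4 in control, 7 and 7 in null, and 1 between genotypes as OPC, where 38.4%, 35.3%, 30.6%, 36.7% and 11.6% of all genes were called; beside the Gal3st1 calls given above, the block changed no other member call in these comparisons.

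Several differences changed sign, most of them not called and 2 of them called (B4galt6 as OPC and Phgdh at DIV2 in control); the cause was not tested. On deposited TPM the genotype difference became -0.013 for Sptlc2 and -0.054 for Degs1 at DIV2, -0.066 for Degs1, -0.026 for Elovl1 and -0.14 for Elovl7 at DIV4, and 1.56 for Elovl1 and 0.73 for B4galt6 as OPC. The Sptlc2 stage changes became 2.23 (DIV4 in control), 0.30 and 0.31 (DIV2 and DIV4 in null), and Phgdh at DIV2 in control 0.41. With protein-coding transcripts those Sptlc2 changes were 1.27, 0.87 and 0.62, the genotype difference was 0.39 for Elovl1 as OPC and 0.059 for Sptlc1 at DIV4, and Sptlc1 to Sptlc2 as OPC was -0.32. Quantile normalization gave -0.046 for Cers2 as OPC. Without the D7 DIV4 library the DIV4 differences were 0.35 for Ugt8a, 0.18 for Fa2h, 0.16 for Cers2 and 0.23 for Sptlc1.

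With 1 clone left out, genotype differences at DIV4 ranged from -0.90 to 0.35 for Ugt8a, -0.59 to 0.18 for Fa2h, -0.51 to 0.16 for Cers2, -0.16 to 0.23 for Sptlc1, -0.034 to 0.37 for Degs1, -0.033 to 0.36 for Elovl1 and -0.37 to 0.61 for Elovl7. As OPC they ranged from -0.35 to 1.09 for Gal3st1, -0.15 to 0.73 for Fa2h, -0.061 to 0.11 for Cers2, -0.056 to 0.53 for Kdsr and -0.33 to 0.043 for Elovl1. At DIV2 they ranged from -0.14 to 0.091 for Gal3st1, -0.11 to 0.088 for Fa2h and -0.31 to 0.057 for Sptlc1. Sptlc2 from OPC to DIV4 in control ranged from -0.29 to 0.084. The log2 ratio differences ranged from -0.42 to 0.21 for Gal3st1 to Ugt8a, -0.61 to 0.43 for Ugt8a to Ugcg and -0.18 to 0.19 for Sptlc1 to Sptlc2 as OPC, from -0.11 to 0.26 for Fa2h to Ugt8a at DIV4, and for Elovl1 to Elovl7 from -0.085 to 0.32 at DIV2 and -0.26 to 0.35 at DIV4. Depth is unknown in TPM, so counting error was not assessed.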
